A study of Mus musculus with 302 samples.

Results

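Rps3 and Folr2 both lie on mouse chromosome 7, with 38 coding genes between them in the gene order of the assembly GRCm38.p6. Their probes were taken by name from the annotation of the array. There were 3 such probes among 23562, with 2 named Rps3 (10024411023 and 10024408858) and 1 named Folr2 (10024411230), and each gave a value in all 302 livers. The annotation places both Rps3 probes on the same transcript record. The genes were chosen by these same array values, since low values of the 1st Rps3 probe and of Folr2 fell in the same mice and other chromosome 7 genes resembled them. So their levels, their states and the chromosome 7 genes that resemble them are given as a description, with no test.

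The livers came from F2 mice, whose grandparents were C57BL/6J and C3H/HeJ, inbred strains, with F1 parents from crosses run both ways. The mice were kept on chow with 4% fat until 8 weeks of age, then on a Western diet with 42% fat and 0.15% cholesterol for 12 weeks, and were killed at 20 weeks after a fast of 12 h. Each array carried the RNA of 1 liver in Cy3 against a pool of RNA from all the mice in Cy5, so a value is the log10 ratio of 1 mouse to that pool. The labels give all mice 1 group, name females and males without saying which mouse is which, and give no genotype. Values were therefore centred in 4 blocks, made from the Y-linked gene Eif2s3y (under or over -0.8, with no mouse between -0.968 and -0.437) and the mouse number in the title (up to 212 or above), of 77, 65, 82 and 78 mice. Nothing in the labels says that the number stands for a processing batch.

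Over the series, array medians lay between -0.0117 and 0.0174, and the SD of the values within 1 array between 0.0697 and 0.258. In 3 arrays it was over 2 times the median of 0.0975. The lowest correlation between 2 arrays was -0.519, and 1035 of 45451 pairs lay under -0.3. Dyes were the same way round on every array per the labels, so the direction was kept, although the deposited values state neither direction nor log base. If the ratio were the other way round, every low state described here would be a high one. A ratio to a pool of the same livers shows no absolute level, so the tissue could not be checked by its markers. The number of arrays limits the precision.

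Rps3 encodes a protein of the small ribosomal subunit, placed where messenger RNA enters the ribosome, and the protein also takes part in DNA base excision repair and in NF-kappaB transcription complexes. Ribosomal protein genes are expressed in step with each other, and many have processed copies elsewhere in the genome. Folr2 encodes folate receptor beta, a membrane protein that binds folate and is found on tissue-resident macrophages, in liver on Kupffer cells. In a bulk liver sample fewer cells of a type and less RNA per cell cannot be told apart.

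The promoters of both genes are shown because the genes lie close, and because the 1st Rps3 probe and Folr2 were low in nearly the same mice. Each window runs from 250 bases before to 50 after the start of transcription in RefSeq (GRCm38.p6), on the minus strand, at chr7:99483660-99483959 for Rps3 and chr7:101857141-101857440 for the 1st of the 2 starts listed for Folr2. Capitals mark the ETS core GGAAGT or its reverse ACTTCC, a short motif read by a large family of transcription factors.
Rps3: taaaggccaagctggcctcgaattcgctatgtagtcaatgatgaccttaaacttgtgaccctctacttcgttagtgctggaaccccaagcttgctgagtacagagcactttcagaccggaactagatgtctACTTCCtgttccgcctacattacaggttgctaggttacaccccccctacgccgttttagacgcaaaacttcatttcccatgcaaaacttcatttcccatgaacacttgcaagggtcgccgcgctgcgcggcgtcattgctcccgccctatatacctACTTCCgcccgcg
Folr2: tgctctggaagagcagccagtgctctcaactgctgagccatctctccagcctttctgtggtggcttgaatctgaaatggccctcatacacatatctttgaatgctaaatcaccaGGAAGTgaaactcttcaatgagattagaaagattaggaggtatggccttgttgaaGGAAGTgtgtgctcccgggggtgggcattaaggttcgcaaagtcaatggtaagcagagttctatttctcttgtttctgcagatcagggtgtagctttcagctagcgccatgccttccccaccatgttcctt
Each of these windows held 2 ETS cores, and 23.8% of 32851 mouse promoter windows of the same length held at least 1. The 2nd Folr2 start, at chr7:101845282-101845581, held 0. The GC box GGGCGG (reverse CCGCCC) occurred 2 times in the Rps3 window and in neither Folr2 window, against 35.7% of all windows with it. Neither gene's windows held the CCAAT box (CCAAT or ATTGG, in 37.4% of all windows), TATAAA or TTTATA (13.6%), or the E box CACGTG (7.15%). Both strands were searched. In the Rps3 window 1 ETS core and 1 GC box share 2 bases, and no other motifs searched overlap in these windows. A match is a description of the letters, and a missing match says only that they are not in this window.

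The 1st Rps3 probe had 3 levels among the mice. Its values ran from -0.545 through a median of -0.0187 to 0.429, and the 5th and 95th percentiles lay 4.72-fold apart. Its SD of 0.210 was above that of 97.8% of all probes, whose median SD was 0.0661. With blocks centred, 2 normal components described the values better than 1 (Bayesian information criterion, BIC, lower by 124) and 3 better than 2 (lower by 38.7). The 3 components held 75 mice (24.8%, exact 95% interval 20.1 to 30.1), 149 mice (49.3%, 43.6 to 55.1) and 78 mice (25.8%, 21.0 to 31.2). For comparison, a single locus with an allele from each parent strain gives genotypes in shares of 25%, 50% and 25% in an F2, and genotypes of these mice were not analysed here.

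The low Rps3 mice had raw ratios from -0.545 to -0.207 with a median of -0.382. In the middle mice they ran from -0.185 to 0.125 around -0.0202, and in the high mice from 0.0395 to 0.429 around 0.157. On this raw scale the low values did not overlap the others, while the middle and the high ones did. The groups were cut on the centred values, so there no groups can overlap. The middle mice reached 0.141 there and the high ones began at 0.147. The fitted step from low to middle was 2.31-fold, or 6.05 SDs within a component, and the step from middle to high 1.5-fold, or 2.94 SDs. The last low mouse, number 100, had a centred value of -0.147, and the next, number 258 in the middle group, one of -0.0776. The posterior of the assigned state was under 0.9 in 1 low, 18 middle and 23 high mice, so the border above the middle group is soft. With only 2 components the same 75 mice formed the low state, 2.64-fold below the 227 others. By block, 20, 18, 22 and 15 mice were low.

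Folr2 had a low state of nearly the same size. Its values ran from -0.958 through -0.0427 to 0.612, the 5th and 95th percentiles lay 12.1-fold apart, and its SD of 0.335 was above that of 99.6% of probes. Here 2 components were better than 1 (BIC lower by 103), and 3 were no better than 2 (BIC change -9.65). The low component held 74 mice (24.5%, 19.8 to 29.8), with raw ratios from -0.958 to -0.304 around -0.656. The 228 others ran from -0.381 to 0.612 around 0.0168, so raw values overlapped slightly at the border. The fitted means lay 4.61-fold, or 4.05 SDs, apart. Unlike Rps3, no gap parted the states: the last low mouse, number 205, had a centred value of -0.224 and the next, number 76, one of -0.203. The posterior was under 0.9 in 8 low and 7 high mice. By block, 20, 15, 23 and 16 mice were low.

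The other Rps3 probe showed none of this. Its values ran from -0.215 through -0.0268 to 0.188, with percentiles 1.72-fold apart. Its SD of 0.0736 stood in the middle of all probes, above 52.2% of them, and 2 components were no better than 1 (BIC change -0.0667). Its medians in the low, middle and high mice of the 1st probe were -0.0268, -0.0202 and -0.0403, so the 3 groups overlapped throughout.

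**Figure D1:**
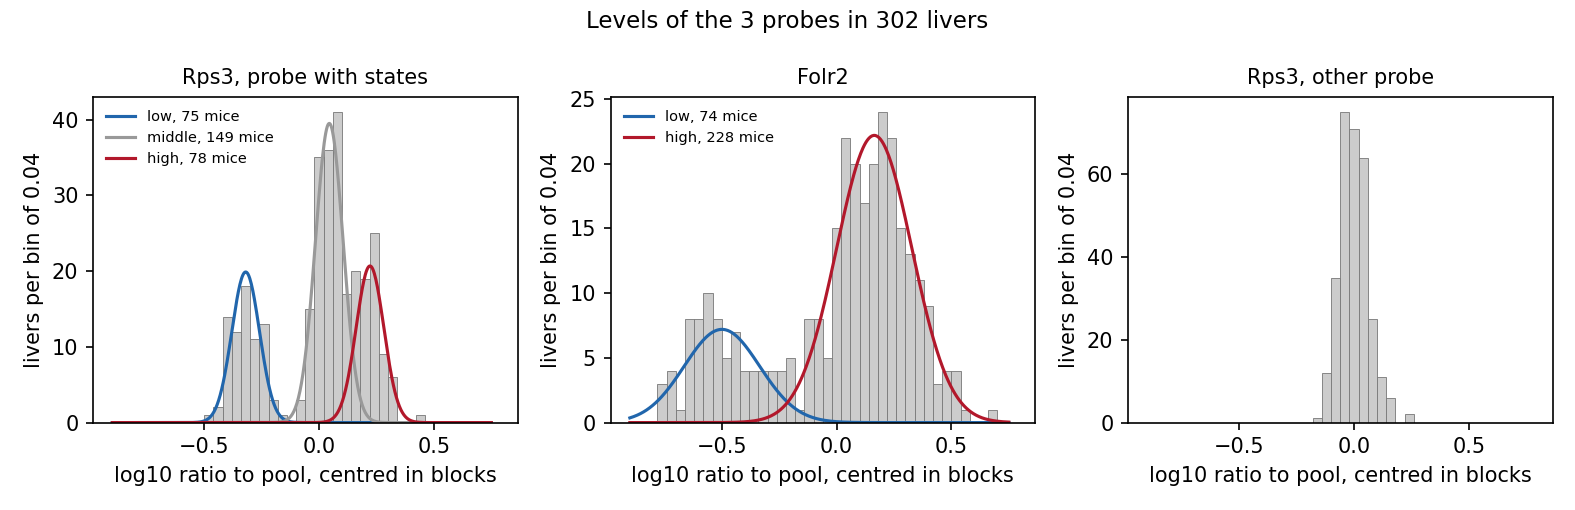
Histograms of the block-centred log10 ratio of each probe over 302 livers, with livers per bin on the vertical axis. Curves are the fitted components, with 75, 149 and 78 mice for the 1st Rps3 probe and 74 and 228 for Folr2, and the other Rps3 probe has a single narrow peak.

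Low values of the 1st Rps3 probe and of Folr2 were found in nearly the same mice. Levels given for Rps3 from here on are those of the 1st probe, unless the other is named. Both were low in 70 mice (23.2% of all, 18.5 to 28.4), which is 93.3% of the low Rps3 mice and 94.6% of the low Folr2 mice. Only Rps3 was low in 5 mice and only Folr2 in 4, and neither in 223. Folr2 also stepped with the Rps3 group above the low one. Its medians in the low, middle and high Rps3 mice were -0.655, -0.0213 and 0.160, with ranges from -0.958 to -0.0223, from -0.598 to 0.352 and from -0.228 to 0.612. Of the low Folr2 mice 70, 4 and 0 lay in these groups. The 3 ranges overlap.

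The likeness between Rps3 and Folr2 was much smaller within the Rps3 groups, and less so within the Folr2 states. Over all mice Pearson's r was 0.857 and Spearman's rho 0.745, and r in the 4 blocks was 0.864, 0.876, 0.856 and 0.847. These values pool mice of separate states. Within the low, middle and high Rps3 mice r was 0.203, 0.0376 and 0.143, and with the mean of each group removed it was 0.118 over all mice. Within the 74 low Folr2 mice it was 0.419 and within the 228 upper ones, which hold both middle and high Rps3 mice, 0.4998. All of these correlations are across mice that share the pool, with both probes of a mouse on 1 array, and they carry no test.

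In 9 mice either the 1st Rps3 probe or Folr2 was low and the other not. Among the 5 with only Rps3 low, the log10 ratios of Rps3 were -0.344 in mouse 106, -0.446 in 171, -0.334 in 214, -0.345 in 331 and -0.445 in 343. Their Folr2 ratios, in the same order, were -0.193, -0.0484, -0.282, -0.0223 and -0.274. Mice 171 and 331 were therefore well inside the upper Folr2 state, and mice 214 and 343 lay near its border. The genes around them that resemble Rps3, described further on, differed from mouse to mouse. Mouse 171 had Neu3 at -0.383 and Chrdl2 at -0.342, and Plekhb1, which lies between Chrdl2 and Folr2, at 0.0930. In mouse 331 Neu3 (-0.356), Chrdl2 (-0.395) and Plekhb1 (-0.287) were all negative, and Trim30d, which lies beyond Folr2, was at -0.0969. In mice 106, 214 and 343 these genes were negative on both sides of Folr2. Neu3 was at -0.400, -0.418 and -0.221 in them, Plekhb1 at -0.349, -0.368 and -0.275, and Trim30d at -0.341, -0.165 and -0.221. Over all mice the medians of Neu3 and Plekhb1 were 0.0180 and -0.0162, and their 5th percentiles -0.494 and -0.424.

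Among the 4 with only Folr2 low, Folr2 was at -0.333 in mouse 130, -0.406 in 205, -0.463 in 209 and -0.598 in 269. Rps3 in the same mice was at 0.0257, -0.0212, -0.0518 and -0.0397, all in its middle group. Mouse 269 was the clearest of these, and mouse 205 lay nearest the Folr2 border once its block's mean was subtracted, at -0.224. Plekhb1 was at 0.128, 0.134, -0.0314 and -0.0551 in them, above its 5th percentile. Trim30d was at -0.0620, -0.238, -0.128 and -0.220.

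**Figure D2:**
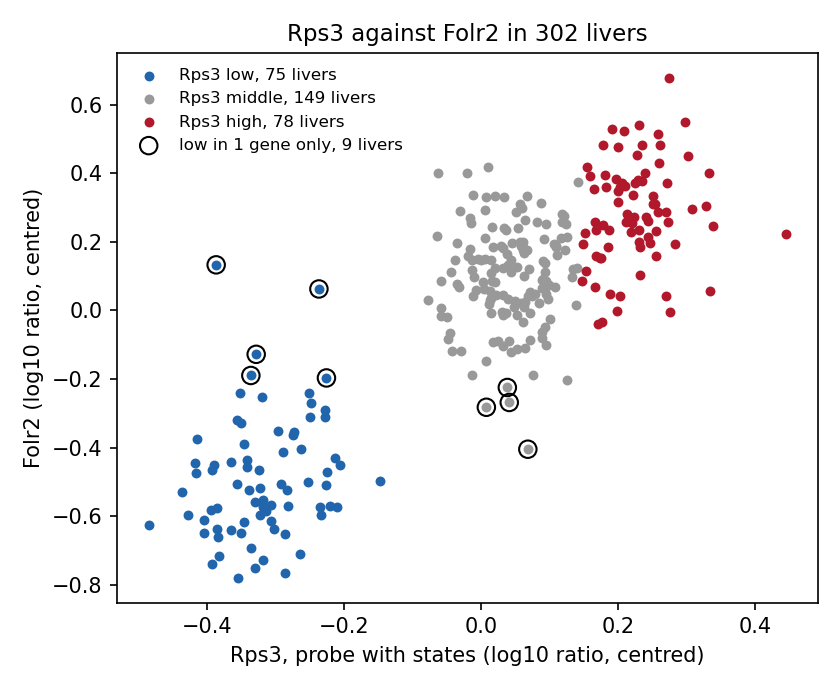
Block-centred log10 ratio of Folr2 against the 1st Rps3 probe, 1 point per liver, coloured by Rps3 group (75, 149 and 78 livers). The 9 livers low in only Folr2 or only the 1st Rps3 probe are ringed. The low Rps3 livers stand apart at the lower left, and within each group the points show little slope.

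The 2 Rps3 probes looked unrelated over all mice and related within each group. Over all 302 mice r was 0.113 and rho 0.156. Within the 75 low mice r was 0.845 (rho 0.830), within the 149 middle mice 0.681 (0.704) and within the 78 high mice 0.355 (0.425). With the mean of each group removed r was 0.620, and leaving out of each group the 2 mice farthest from its median gave 0.811, 0.689 and 0.465. So what the 2 probes share is the spread within a group, and the steps between groups are in 1 probe only. What sequence either probe binds, and whether a base that differs between the parent strains lies in it, was not tested. Probe sequences were not analysed here.

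**Figure D3:**
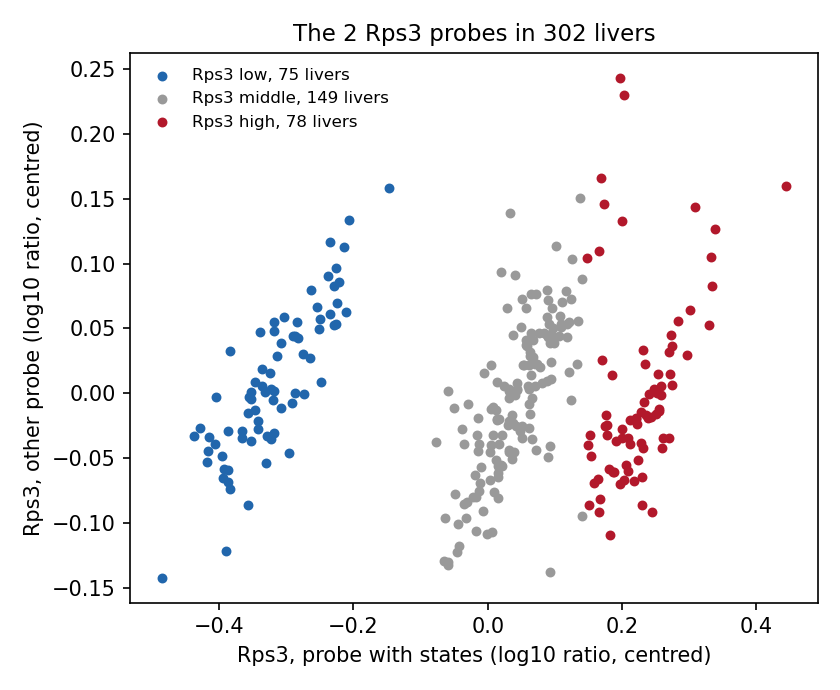
Block-centred log10 ratio of the other Rps3 probe against the 1st Rps3 probe, 1 point per liver, coloured by group of the 1st probe. The 75 low, 149 middle and 78 high livers form 3 bands side by side that each slope upward, with r of 0.845, 0.681 and 0.355.

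Other genes of chromosome 7 resembled Rps3 and Folr2. Likeness was measured as Pearson's r over mice with blocks centred, and at least 0.5 in size was counted. With Rps3, 25 of 1026 chromosome 7 probes reached it, 14 with r above 0 and 11 below, and they belong to 22 genes. On the other chromosomes 1 of 11591 named probes did, and 16 of 10892 unnamed ones, so that 0.179% of all probes reached it. With Folr2 it was 24 chromosome 7 probes of 22 genes, 17 above 0 and 7 below, 1 named probe elsewhere and 12 unnamed ones, 0.157% of all probes. The gene lists had 20 genes in common, 90.9% of each. The genes were part of how the pair was chosen, so the counts are a description.

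The genes closest to Rps3 in pattern lay on both sides of it. Neu3, a sialidase of the cell surface 6 coding genes further along, had an r of 0.839 with Rps3 and 0.800 with Folr2. Plekhb1, a membrane-bound protein with a pleckstrin homology domain 24 genes along, had 0.830 and 0.775. Chrdl2, a secreted binder of bone morphogenetic proteins 10 genes along, had 0.795 and 0.755. On the other side, Clns1a, a subunit of the complex that methylates spliceosome proteins 22 genes away, had 0.826 and 0.739. Its neighbour Aqp11, an intracellular water channel, had 0.812 and 0.755, and the unconventional myosin gene Myo7a, 18 genes away, 0.691 and 0.756. The spread of these genes was unequal: the 5th and 95th percentiles lay 7.57-fold apart in Neu3, 4.86-fold in Plekhb1, 5.27-fold in Chrdl2, 3.21-fold in Aqp11, 1.78-fold in Clns1a and 1.71-fold in Myo7a.

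Other genes with a high r lay much further away in gene order. Trim30d, of a family of interferon-induced ubiquitin ligases, lay 173 coding genes beyond Rps3 and had the highest r of all with Folr2, 0.859, and 0.822 with Rps3. Its relatives Trim34a (0.709 with Rps3 and 0.723 with Folr2) and Trim12a (0.636 and 0.682) are near it. In the other direction Cib1, a calcium- and integrin-binding protein, had 0.713 and 0.656 at 149 genes, and Ngrn, a factor of the mitochondrial ribosome, had -0.665 and -0.573 at 146 genes, so Ngrn was higher where Rps3 was lower. Many coding genes on this chromosome are olfactory and vomeronasal receptors in dense clusters, so the count of genes is no measure of map distance. Tmc5 and Crym, named after their values were seen, had r of -0.608 and -0.648 with Rps3 and of -0.518 and -0.632 with Folr2, at 373 and 399 genes.

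Within the Rps3 groups most of these chromosome 7 genes had little likeness to Rps3. Within the broader Folr2 states several kept some likeness to Folr2. In the low, middle and high mice r with Rps3 was 0.0874, -0.151 and 0.160 for Neu3, -0.0869, 0.173 and 0.223 for Plekhb1, and -0.121, 0.100 and 0.153 for Clns1a. For Aqp11 it was -0.00805, -0.00765 and 0.00613. For Trim30d it was 0.0772, -0.0379 and 0.215. An exception was Slco2b1, the nearest measured gene after Rps3, with 0.426, 0.216 and 0.0514. The r with Folr2 in the low and the upper Folr2 mice was 0.499 and 0.600 for Trim30d, 0.309 and 0.593 for Myo7a, 0.132 and 0.536 for Trim12a, and 0.174 and 0.493 for Trim34a. It was 0.269 and 0.469 for Neu3, 0.190 and 0.452 for Aqp11, 0.214 and 0.400 for Plekhb1, and 0.107 and 0.378 for Clns1a. Each of these 8 genes had the larger value in the upper Folr2 mice. Those mice hold both middle and high Rps3 mice. Folr2 medians in the middle and high Rps3 groups were -0.0213 and 0.160, so values within the upper state include that step.

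Of the 12 measured genes nearest to Rps3, 3 reached an r of 0.5 with it, and of the 12 nearest to Folr2, 0 did with that gene. Before Rps3, the nearest measured genes were Wnt11, a secreted signal (r with Rps3 0.0442), the triglyceride synthesis genes Dgat2 (-0.0346) and Mogat2 (0.0658), the microtubule gene Map6 (-0.0983), the collagen chaperone Serpinh1 (0.188) and Gdpd5 (-0.111). After it came the organic anion transporter Slco2b1 (0.639), Neu3, Xrra1 (-0.00485), Rnf169 (0.0269), Chrdl2 and Pold3 (-0.0566), the last a DNA polymerase subunit with a 38.4-fold spread of its own. Before Folr2 they were Fchsd2 (-0.145), the lipid transfer gene Stard10 (-0.394), Arap1 (-0.161), Pde2a (-0.0383), Clpb (-0.157) and Phox2a (-0.217). After it they were Folr1, the other main folate receptor (0.0227), Numa1 (0.0243), the interleukin binder Il18bp (0.318), Rnf121 (-0.443), Trpc2 (0.106) and Art5 (-0.0452). Folr1 lies 1 gene from Folr2 and had almost no likeness to it.

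Set along the chromosome, the genes with an r of at least 0.5 with Rps3 were 3 of 13 measured among the 25 coding genes before it and 6 of 15 among the 25 after it. In the next 25 they were 1 of 9 and 0 of 14, from 51 to 100 genes away 0 of 14 and 1 of 11, and from 101 to 200 genes away 2 of 60 and 3 of 18. From 201 to 400 genes away they were 0 of 120 before and 6 of 95 after. Beyond 400 genes there were 0 of 324 before and 0 of 196 after. So the share was largest within 25 genes of Rps3, though most genes there did not reach 0.5. With Folr2 they were 2 of 17 among the 25 genes before it and 1 of 12 among the 25 after, 3 of 14 and 0 of 3 in the next 25, 4 of 23 and 0 of 3 from 51 to 100, 2 of 41 and 5 of 31 from 101 to 200, 0 of 128 and 4 of 101 from 201 to 400, and 0 of 341 and 1 of 175 beyond.

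**Figure D4:**
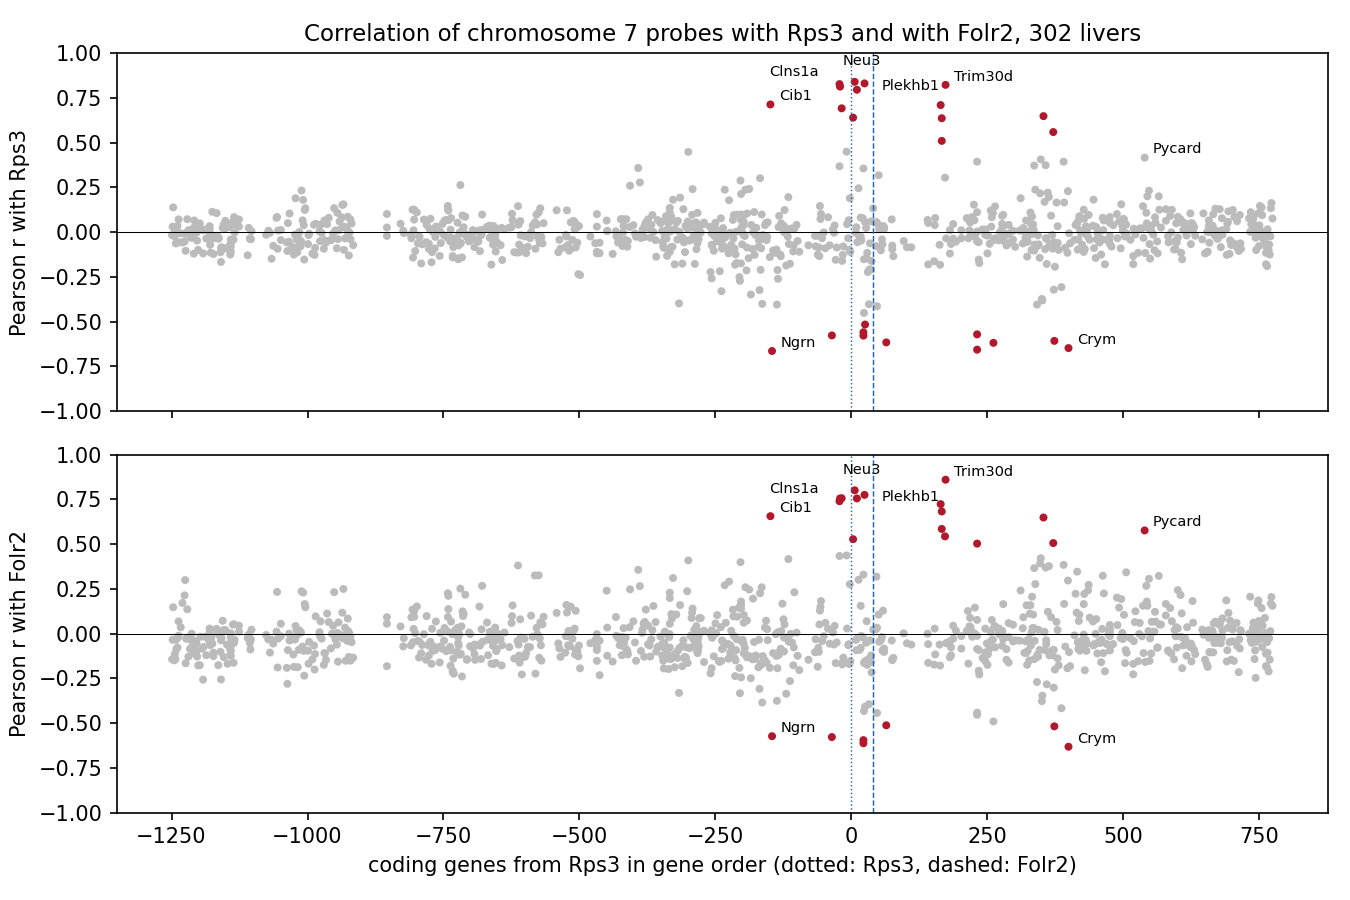
Pearson's r of each named chromosome 7 probe with the 1st Rps3 probe (top) and with Folr2 (bottom) over 302 livers, against its place in coding genes from Rps3. Red points have r of at least 0.5 in size, 25 probes for Rps3 and 24 for Folr2, and most points lie near 0 even close to the 2 genes.

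To see which of the pair a chromosome 7 gene goes with, both entered 1 model with the blocks (limma). The slopes are in log10 units per log10 unit, with their standard error, and are a description. Clns1a went with Rps3, with a slope of 0.270 ± 0.0235 on it and 0.0271 ± 0.0147 on Folr2. Slco2b1, 3 coding genes from Rps3, had 0.320 ± 0.0392 and -0.0220 ± 0.0245, and Ngrn -0.310 ± 0.0399 and -0.00384 ± 0.0249. Neu3 had 0.721 ± 0.0731 and 0.238 ± 0.0456. Myo7a had 0.0558 ± 0.0253 on Rps3 and 0.133 ± 0.0158 on Folr2, and Trim30d 0.384 ± 0.0648 and 0.434 ± 0.0405. The slopes of Rps3 and Folr2 were estimated together from levels whose r was 0.857, and error in either level was not modelled.

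Off chromosome 7 few genes followed Rps3. In a limma fit of every probe on the level of the 1st Rps3 probe, with blocks as a factor, 378 of 23509 probes had a slope past an adjusted p of 0.05 (Benjamini-Hochberg over all probes), 1.61% of them. Of these 200 were higher with Rps3 (0.851%) and 178 lower (0.757%). On other chromosomes it was 127 of 11591 probes (1.10%). On chromosome 7 it was 90 of 1026 (8.77%), a count given only as a description, since genes there were part of how the pair was chosen. The 5 genes with the largest r off chromosome 7 were Fgf2, a fibroblast growth factor (r -0.528, slope -0.185 ± 0.0172, adjusted p = 3.63e-20), the homeobox gene Lhx6 (r -0.343, adjusted p = 3.85e-07), the annexin gene Anxa13 (r 0.302, adjusted p = 1.94e-05), Abcb11, the export pump for bile salts (r -0.284, adjusted p = 0.000114), and the protease inhibitor gene Spint1 (r 0.267, adjusted p = 0.000502). Fgf2, on chromosome 3, was the only named probe off chromosome 7 past an r of 0.5 in size, and it was lower where Rps3 and Folr2 were higher. Its r within the low, middle and high Rps3 mice was -0.268, -0.195 and 0.0222.

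No gene for another protein of the small ribosomal subunit passed with the 1st Rps3 probe, where few probes of any kind did. Of 53 probes for 12 of these genes 0 passed the limma test with Rps3, beside 1.61% of all probes, so the count is near that of the array as a whole. There were 3 at an unadjusted p under 0.05, where 3193 of all 23509 probes lay, and 0 called with a trended, robust prior. Their median slope was 0.00776, against -0.00218 over all probes. Of 120 probes for 28 genes of the large subunit 0 passed, and 27 had an unadjusted p under 0.05 (0 with the robust prior). Of those 27, 22 rose with Rps3. The mean standardized value of the small-subunit probes had a median of 0.0181, -0.0360 and -0.0359 in the low, middle and high Rps3 mice.

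Within the Rps3 groups the ribosomal genes did rise with it. In a limma fit with the 3 groups as a further factor, added after seeing the data, 32 of the 53 small-subunit probes rose with Rps3 and 4 fell, beside 26.1% and 20.9% of all probes. All 12 genes had a probe that rose. Rps15 had a slope of 0.772 ± 0.0619 (adjusted p = 5.09e-26) and Fau, whose product is processed into a small-subunit protein, 0.980 ± 0.0808 (adjusted p = 6.11e-25). Of the 120 large-subunit probes 83 rose and 8 fell. In this fit 47.0% of all probes passed, so much of the array moved with the level within a group. The first principal component of all probes held 11.4% of the variance and had an r of 0.102 in size with Rps3 over all mice. Its r with Rps3 within the groups was not analysed.

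The other Rps3 probe followed the ribosomal genes without any grouping. Of the 53 small-subunit probes 40 rose with it and 0 fell, again from all 12 genes, beside 28.2% and 22.5% of all probes. Rpsa, also of the small subunit, had a slope of 0.691 ± 0.0401 (adjusted p = 1.26e-43) and, at 0.708, the highest r with this probe of all named genes. Of the large-subunit probes 91 rose and 5 fell. It was followed by 50.7% of all probes, and 439 probes (1.87%) had an r of at least 0.5 in size, 16 of them on chromosome 7. The small-subunit score had an r of 0.677 with this probe and of 0.0582 with the 1st one. Within the low, middle and high mice its r with the 1st probe was 0.529, 0.461 and 0.293, and with the other probe 0.653, 0.743 and 0.605.

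Counts for genes tied to the further roles of Rps3 were near those of all probes. With Rps3, in limma, 0 of 4 probes for small-subunit assembly factors (1 at an unadjusted p under 0.05) and 0 of 17 probes for base excision repair and NF-kappaB (3) were called, beside 1.61% of all probes, and 0 of both with the robust prior. At the unadjusted cut the count over all probes was 3193 of 23509. With Folr2 1 of the 4 and 2 of the 17 were called, beside 16.8% of all probes. The assembly factor Bysl was lower (slope -0.0177 ± 0.00578, adjusted p = 0.0209), as was the DNA glycosylase Nthl1 (-0.0258 ± 0.0093, adjusted p = 0.0392), and the related Neil3 was higher (0.0561 ± 0.0153, adjusted p = 0.00461).

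Macrophage genes rose with Folr2. In the same limma fit 3950 of 23509 probes (16.8%) had a slope on Folr2 past the adjusted p of 0.05, 1628 higher with it (6.93%) and 2322 lower (9.88%). Of 26 probes for 24 macrophage and Kupffer cell genes 20 rose with Folr2, from 19 genes, and 1 fell, with a median slope of 0.130 against -0.00524 over all probes. The 4 with the smallest p were C1qc, a chain of complement C1q (slope 0.220 ± 0.0266, adjusted p = 2.14e-12), the complement receptor Vsig4 (0.222 ± 0.0282, adjusted p = 2.58e-11), the lysosomal protease Ctss (0.219 ± 0.0293) and Cd5l, a protein secreted by macrophages (0.224 ± 0.0300), the last 2 at an adjusted p of 3.20e-10. C1qc ran from -0.635 through -0.0683 to 0.493 over the mice, and Vsig4 from -0.742 through -0.00957 to 0.496. These 4 were also, after Fgf2, the genes off chromosome 7 with the largest r with Folr2, at 0.431, 0.414, 0.396 and 0.396. Siglec1, another macrophage receptor, was lower with Folr2 (slope -0.0316 ± 0.00909, adjusted p = 0.00755), and Cd163, Hpgd, Slc40a1, Stab1 and 1 of 2 Timd4 probes did not pass. C1qa, C1qb and Tyrobp, chosen after their values were seen, had slopes of 0.135, 0.112 and 0.158.

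With Rps3 0 of the 26 macrophage probes passed the limma test (7 at an unadjusted p under 0.05, 0 with the robust prior), beside 1.61% of all probes. The unadjusted cut was passed by 3193 of all 23509 probes. Of the 26 slopes on Rps3 22 were positive, with a median of 0.0399 against -0.00218 over all probes. Whether the slopes on the 2 genes differ was not tested in these separate fits. The median of the mean standardized value of the 26 probes was -0.0974, -0.000813 and 0.0721 in the low, middle and high Rps3 mice, with 10th and 90th percentiles from -0.987 to 0.859, from -0.810 to 0.873 and from -0.641 to 0.927. In the low and upper Folr2 mice that median was -0.192 and 0.0383. The r of this score with Folr2 was 0.417 over all mice, 0.312 within the low and 0.582 within the upper Folr2 mice. With Rps3 it was 0.104. In a limma fit with the Folr2 states as a further factor, added after seeing the data, 21 of the 26 probes rose with Folr2, beside 7.55% of all probes, and 0 fell (11.7% of all). Adgre1, the receptor F4/80, had a slope of 0.510 ± 0.0514 in it (adjusted p = 1.82e-16). That fit called 19.3% of all probes.

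**Figure D5:**
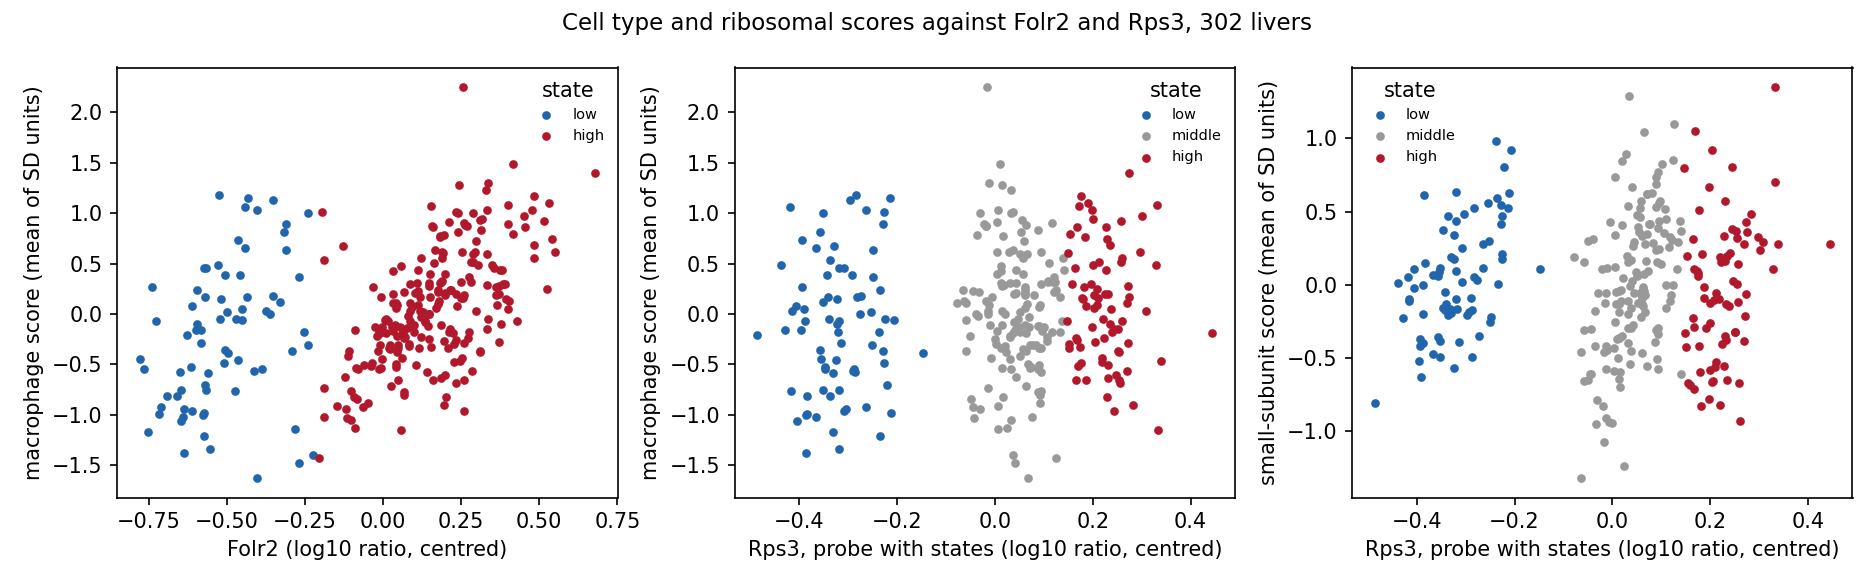
Mean standardized value of the macrophage probes against Folr2 (left) and the 1st Rps3 probe (middle), and of the small-subunit probes against the 1st Rps3 probe (right), 1 point per liver, coloured by state. The macrophage score climbs with Folr2 inside both states (r 0.312 and 0.582), and the small-subunit score climbs inside each Rps3 group (0.529, 0.461 and 0.293) but not from group to group.

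Among genes of other liver cells, those of stellate cells rose with Folr2 most often. All 8 stellate cell genes had a probe that rose with it, 8 of 9 probes beside 6.93% of all probes, among them Col1a2, a collagen chain (slope 0.165 ± 0.0312, adjusted p = 1.73e-05), and the growth factor receptor gene Pdgfrb (0.106 ± 0.0218, adjusted p = 8.78e-05). Of 11 endothelial probes 3 rose (Lyve1, Emcn and Tek) and 0 fell, of 9 neutrophil probes 4 rose and 1 fell, and of 11 lymphocyte probes 2 rose and 1 fell, beside 6.93% of all probes that rose and 9.88% that fell. Of 4 bile duct probes the adhesion molecule gene Epcam rose (0.107 ± 0.0183, adjusted p = 1.44e-06). Of 13 hepatocyte probes 0 rose and 2 fell, near the shares of all probes. They were Hnf4a, a regulator of hepatocyte genes (-0.0214 ± 0.00583, adjusted p = 0.00468), and Pck1, an enzyme of glucose synthesis (-0.0618 ± 0.0223, adjusted p = 0.0391). With Rps3 the limma test called Epcam (0.142 ± 0.0299, adjusted p = 0.000605) and the stellate cell gene Dcn (0.0661 ± 0.0185, adjusted p = 0.0314), both higher. It called 0 of the endothelial, lymphocyte, neutrophil and hepatocyte probes, beside 1.61% of all probes, with 0, 0, 3 and 2 at an unadjusted p under 0.05 and 0 with the robust prior. Over all probes 3193 of 23509 lay under that unadjusted cut. The part of the number of macrophages or other cells in the level of Folr2 was not tested. Folr2 had an r of 0.251 in size with the first principal component, and with that component as a covariate 1261 probes followed it.

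The count for genes of folate uptake and one-carbon metabolism was near that of all probes. Of 19 probes for 17 genes 2 were called, beside 16.8% of all probes. Mthfd2, a mitochondrial enzyme of the pathway, rose with Folr2 (slope 0.0535 ± 0.0200, adjusted p = 0.0486) and 1 of 2 probes of Ahcy, which splits adenosylhomocysteine, fell (-0.0372 ± 0.0135, adjusted p = 0.0402). Folr1 had a slope of 0.00302 ± 0.00772 on Folr2 and did not pass. With Rps3 0 of the 19 passed in limma, beside 1.61% of all probes. At an unadjusted p under 0.05 there was 1, beside 3193 of 23509 over all probes, and 0 were called with the robust prior.

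With both genes in 1 model most macrophage and ribosomal probes called had slopes of opposite sign on Rps3 and on Folr2. With Rps3 held, 21 of the 26 macrophage probes rose with Folr2 and 1 fell, beside 16.2% and 28.2% of all probes, and C1qc had a slope of 0.618 ± 0.0443 on it. With Folr2 held, 21 macrophage probes fell with Rps3 and 1 rose, beside 13.9% and 22.0% of all probes, and C1qc had -0.743 ± 0.0710 on it. In the fit on Rps3 without Folr2 this fall was absent. There C1qc had a slope of 0.105 ± 0.0469 that did not pass, and 22 of the 26 macrophage slopes were positive. Of the small-subunit probes 36 rose and 1 fell with Rps3 at a held Folr2, and 1 rose and 35 fell with Folr2 at a held Rps3. The model called 35.9% of all probes on Rps3 and 44.4% on Folr2. The 2 levels in it had an r of 0.857, so the slopes on them are not independent estimates.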

How the data were processed

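Liver RNA of 302 mice was measured on 2-colour arrays against a common pool. The authors made the deposited log ratios, read here as log10 of mouse over pool, from the Cy3 and Cy5 signals of each array, per the labels. Their steps of scanning, background correction and scaling are not stated in the labels. Deposited values stop at -2 and 2, which in log10 is 100-fold. All columns carried the name of a mouse, and 0 were left out.

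Names came from the array's annotation, updated through gene identifiers to RefSeq (GRCm38.p6). Of the probes 13655 had 1 symbol and 48 several, and 12652 matched 10838 mouse genes. The order of coding genes on chromosome 7 was taken from the same table, without Hbb-b1 and Hbb-b2, which it places off the main sequence. Which build the array was designed on is not given. The 23512 probes measured in 90% or more of the mice were kept, and each fit left out the 3 probes of Rps3 and Folr2.

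Values were centred on the mean of 4 blocks. States were fitted as 1, 2 or 3 normal components of equal variance, compared by BIC (a fall is given as a positive gain), each mouse going to the component with the larger posterior. A planned Fisher's exact test of the states across mouse numbers is not given, because centring within blocks of those numbers bears on the balance it would test. Intervals are exact binomial (Clopper-Pearson, 95%). Slopes were fitted with limma 3.58.1 in R 4.3.3 (lmFit and eBayes, two-sided), adjusted by Benjamini-Hochberg over all probes at 0.05; other values with Python 3.11.15 and scipy 1.17.1. Both fits were tested on simulated data. The labels name mice and no further replicates. A cell type or ribosomal score is the mean over probes of values divided by their SD.

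The genes and the 12 gene lists were chosen with earlier results of these data known. Named genes are the members, the 10 chromosome 7 genes and the 5 others with the largest r with each, the 6 measured genes nearest on each side of each, and up to 4 called genes per list and fit by p, taking for a gene the probe with the largest r. Unnamed probes were counted and not described, and no genotype, trait or sex was analysed here.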

Additional observations from a re-analysis of the deposited data

How the results depend on the processing

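The size of the states changed little. Without centring, with block medians, by the midpoint of the fitted means, without the 3 arrays of wide spread and with the mean of both Rps3 probes, the low Rps3 mice numbered 73 to 75, the low Folr2 mice 70 to 79 and the shared ones 64 to 72 (Folr2 has 1 probe, so its mean over probes was not run). Chromosome 7 probes with an r of at least 0.5 numbered 21 to 26 for Rps3 and 20 to 24 for Folr2. The r of Rps3 with Folr2, 0.857, was 0.745 by Spearman's rho and 0.845 or more otherwise. The 378 probes that follow Rps3 became 687 without blocks, 719 with the Eif2s3y block only, 3098 with the mean of both Rps3 probes, 11055 with the 3 groups as a factor (added after seeing the data), and 153 and 128 in mouse numbers up to 212 and above. The 3950 that follow Folr2 became 1261 with the first principal component and 1152 and 852 in the early and late mouse numbers, where fewer mice are tested. Of the 53 small-subunit probes, 21 passed in either direction with the mean of both Rps3 probes, against 0 with the 1st probe. Of the 26 macrophage probes it was 2 against 0, also in either direction. Over all 23509 probes it was 3098 against 378. With Folr2 5 small-subunit probes were lower, beside 9.88% of all probes, and 1 was higher. The 5 became 1 and 0 in the early and late numbers, where fewer probes of any kind passed. Except where said, the cause was not tested. Of 81 alternative values 67 stayed within the limits set for them and 14 moved. Only correlations between probes could be labelled as reversed, and none was. The 81 include those of the Fisher's exact test that is not given. No paired analysis was possible because the labels give 1 group. No spot brightness was analysed here, so how near background a probe lay is not known.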
